A study of Homo sapiens with 4 samples.

Results

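Across the SKBR3 genome, 19285 sites of open chromatin lay more than 100 kb from the start of every protein-coding transcript and carried a peak in all 4 ATAC-seq libraries. They were found by merging peaks of the 4 deposited lists that overlapped by at least 1 bp on chromosomes 1 to 22 and X, and by measuring from the nearest edge of each merged site to the starts in GENCODE release 44. They made up 14.6% of the 131751 sites shared by all 4 libraries and 6.27% of all 307691 merged sites. Both the presence of a peak in every list and the distance chose the sites, so neither is a finding. They are called distant shared sites here. The 86101 shared sites at 1 to 100 kb from a start (nearer distal sites) and the 26365 within 1 kb (promoter sites) served for comparison.

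ATAC-seq maps open chromatin through insertion of adaptors by the Tn5 transposase. SKBR3, the only line in these 4 libraries, was established from a breast cancer that overexpressed HER2, so the data stand for a single tumour. All cells were seeded in DMEM with serum and starved in Opti-MEM for 8 h. The 2 TWEAK libraries came from cells given 10 ng/ml of TWEAK, the cytokine that binds the receptor Fn14, for 48 h with renewal after 24 h, and the 2 Untreated libraries from cells without it. The methods call replicates of cell lines biological and state that work on cell lines was repeated independently on separate days, but no label says which of these libraries share a day.

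Open sites far from genes are mostly enhancers or sites bound by the insulator protein CTCF. Enhancers are bound by transcription factors and act on genes over long distances through chromatin looping, and genes of developmental regulators often sit beside wide stretches of non-coding sequence that hold many of them. TWEAK and Fn14 act through NF-κB, whose p52 and RelB subunits serve the non-canonical branch, and through AP-1, the dimers of Jun and Fos proteins. Sites of both factors are common in enhancers of epithelial cells. In luminal breast cells, FOX, GATA, TFAP2 and GRHL factors are typical further binders of enhancers.

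The sequences below, read from hg38 on the plus strand, show what such sites look like. Each spans 100 bases either side of its highest-ranked peak's centre, and capitals mark matches to the 15 motifs searched, on either strand. Shown first, and named by the nearest protein-coding gene, are the strongest distant shared sites on the chromosomes whose sequence is printed here, since they ranked above the 99th percentile in every library.
TFAP2C, chr20:56804531-56804731: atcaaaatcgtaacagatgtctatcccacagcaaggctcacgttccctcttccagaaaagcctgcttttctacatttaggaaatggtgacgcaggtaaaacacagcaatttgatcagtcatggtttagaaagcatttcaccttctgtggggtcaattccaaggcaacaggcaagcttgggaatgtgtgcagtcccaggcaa
KLF14, chr7:130904223-130904423: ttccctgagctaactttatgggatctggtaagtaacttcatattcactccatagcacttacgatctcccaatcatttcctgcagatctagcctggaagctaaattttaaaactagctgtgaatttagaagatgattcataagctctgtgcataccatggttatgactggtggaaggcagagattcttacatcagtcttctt
BCAS1, chr20:53805906-53806106: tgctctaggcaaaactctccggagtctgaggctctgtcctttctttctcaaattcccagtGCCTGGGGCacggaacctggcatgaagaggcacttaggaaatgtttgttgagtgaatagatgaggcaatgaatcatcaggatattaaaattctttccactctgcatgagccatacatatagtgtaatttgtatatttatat
C20orf85, chr20:57991341-57991541: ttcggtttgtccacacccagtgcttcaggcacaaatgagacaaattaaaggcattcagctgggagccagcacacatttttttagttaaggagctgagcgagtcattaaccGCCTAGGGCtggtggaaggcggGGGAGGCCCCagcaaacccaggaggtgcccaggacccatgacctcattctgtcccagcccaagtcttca
ZNF217, chr20:53735660-53735860: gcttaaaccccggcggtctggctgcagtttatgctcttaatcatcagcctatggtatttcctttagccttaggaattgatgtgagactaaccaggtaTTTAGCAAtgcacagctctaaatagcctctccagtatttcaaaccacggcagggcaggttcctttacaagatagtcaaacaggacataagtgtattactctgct
NFE2L3, chr7:25862451-25862651: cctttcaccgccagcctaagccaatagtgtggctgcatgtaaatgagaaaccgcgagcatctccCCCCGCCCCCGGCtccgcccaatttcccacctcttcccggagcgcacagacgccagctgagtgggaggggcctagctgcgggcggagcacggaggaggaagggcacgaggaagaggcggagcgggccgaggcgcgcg
The sites near TFAP2C and KLF14 held none of the motifs. The site near BCAS1 held a TFAP2 match, that near C20orf85 matches for TFAP2 and NF-κB, that near ZNF217 a CEBP match, and that near NFE2L3 overlapping matches for SP/KLF and TFAP2 in sequence of 67.7% GC.

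The next set shows NF-κB matches in sites that ranked higher in both TWEAK libraries than in both Untreated libraries. The first 3 are the strongest of these sites, the following 3 had the largest relative rise in signal, and the last lay 139 kb from NAMPT, which encodes the rate-limiting enzyme of NAD salvage. The last 4 were picked after their values were seen. By mean percentile the first 3 rose little, by 1.25, 0.336 and 1.88 points in the order shown. The site near MBNL2 ranked at 95.8 and 95.8 in the Untreated and 96.3 and 96.0 in the TWEAK libraries.
SOX9, chr17:72422932-72423132: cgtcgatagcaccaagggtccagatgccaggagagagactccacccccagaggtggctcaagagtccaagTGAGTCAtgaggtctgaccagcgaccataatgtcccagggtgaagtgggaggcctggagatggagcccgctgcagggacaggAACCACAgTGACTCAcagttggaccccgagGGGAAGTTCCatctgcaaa
MBNL2, chr13:97109968-97110168: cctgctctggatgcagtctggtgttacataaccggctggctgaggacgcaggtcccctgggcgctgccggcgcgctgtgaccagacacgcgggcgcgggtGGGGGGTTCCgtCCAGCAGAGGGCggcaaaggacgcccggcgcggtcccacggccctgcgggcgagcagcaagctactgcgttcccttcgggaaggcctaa
RDH14, chr2:18345963-18346163: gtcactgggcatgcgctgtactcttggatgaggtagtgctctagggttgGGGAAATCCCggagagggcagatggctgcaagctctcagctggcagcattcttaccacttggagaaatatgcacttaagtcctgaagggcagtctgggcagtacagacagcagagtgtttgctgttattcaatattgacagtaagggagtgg
ARPP21, chr3:35263461-35263661: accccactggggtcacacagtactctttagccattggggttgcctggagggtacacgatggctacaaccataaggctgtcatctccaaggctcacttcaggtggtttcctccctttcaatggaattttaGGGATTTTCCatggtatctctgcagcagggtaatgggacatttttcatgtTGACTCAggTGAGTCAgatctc
EFNB2, chr13:106374050-106374250: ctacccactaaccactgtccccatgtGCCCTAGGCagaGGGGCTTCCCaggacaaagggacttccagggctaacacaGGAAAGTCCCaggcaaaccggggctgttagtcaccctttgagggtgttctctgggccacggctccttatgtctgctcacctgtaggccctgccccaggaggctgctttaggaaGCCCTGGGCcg
LRATD1, chr2:14750135-14750335: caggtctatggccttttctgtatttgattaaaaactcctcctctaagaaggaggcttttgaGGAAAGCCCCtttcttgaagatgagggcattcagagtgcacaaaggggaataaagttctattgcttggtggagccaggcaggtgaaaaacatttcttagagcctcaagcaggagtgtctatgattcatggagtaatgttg
NAMPT, chr7:106425053-106425253: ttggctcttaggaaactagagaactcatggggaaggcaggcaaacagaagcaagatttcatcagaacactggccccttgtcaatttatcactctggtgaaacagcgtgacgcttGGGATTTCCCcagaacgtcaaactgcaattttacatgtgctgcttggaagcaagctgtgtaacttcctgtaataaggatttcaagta
The site near SOX9 also held AP-1 matches on both sides of a RUNX match, the site near ARPP21 a pair of AP-1 matches, the site near MBNL2 a CTCF match beside the NF-κB match, and the site near EFNB2 TFAP2 matches around its NF-κB matches. The sites near RDH14, LRATD1 and NAMPT held NF-κB matches alone.

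Distant shared sites lay at a median of 209.9 kb from the nearest protein-coding start, with an interquartile range of 140 to 364.7 kb. Of them, 7935 (41.1%) were more than 250 kb away, 2882 (14.9%) more than 500 kb and 633 (3.28%) more than 1000 kb. They were 539 bp wide at the median, little more than the fixed width of a deposited peak, and the widest spanned 4387 bp. Intergenic sequence held 16759 of them (86.9%), introns of protein-coding genes 2458 (12.7%) and exons 68 (0.353%). Only long genes can hold a site this far from all of their starts, and 470 genes did. CSMD3, a giant adhesion-type gene on chromosome 8, held 100 such sites, MMP16, a membrane-bound matrix metalloprotease gene, held 85, and KCNB2, a potassium channel gene, 58. On other chromosomes, CAMTA1 held 54, PRKCA, the gene of protein kinase C alpha, 39 and RUNX1, a luminal transcription factor gene, 26.

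The farthest site, chr22:11974061-11974570, lay 3553.6 kb from OR11H1, an olfactory receptor gene, and no coding start lay on its other side. Its peaks ranked at percentiles 84.7 and 81.9 in the Untreated lists and 82.2 and 84.2 in the TWEAK lists, where the percentile is the rank of a peak among all peaks of its own list. Next came a neighbouring pair near AQP7B on chromosome 2, at 2822 and 2820 kb. The site at chr2:91764324-91765027 ranked at 33.1, 16.0, 25.5 and 12.3 in Untreated 1, Untreated 2, TWEAK 1 and TWEAK 2, and that at chr2:91766354-91766865 at 85.1, 84.6, 90.2 and 88.1, so weak and strong sites lay side by side. The remaining sites of the farthest 5 lay beyond PCDH7, at 2470 kb, and before TENM3, at 2339 kb, and both ranked lower in the TWEAK lists. At the 100 kb limit, the sites just inside lay at 100001, 100010 and 100012 bp from MTPN, TBX5 and PEX2, and those just outside at 99999, 99992 and 99971 bp from ZNF281, JPH1 and CA2. Untreated 1 percentiles were 15.1, 60.2 and 38.0 inside and 85.7, 57.5 and 51.7 outside.

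**Figure D1:**
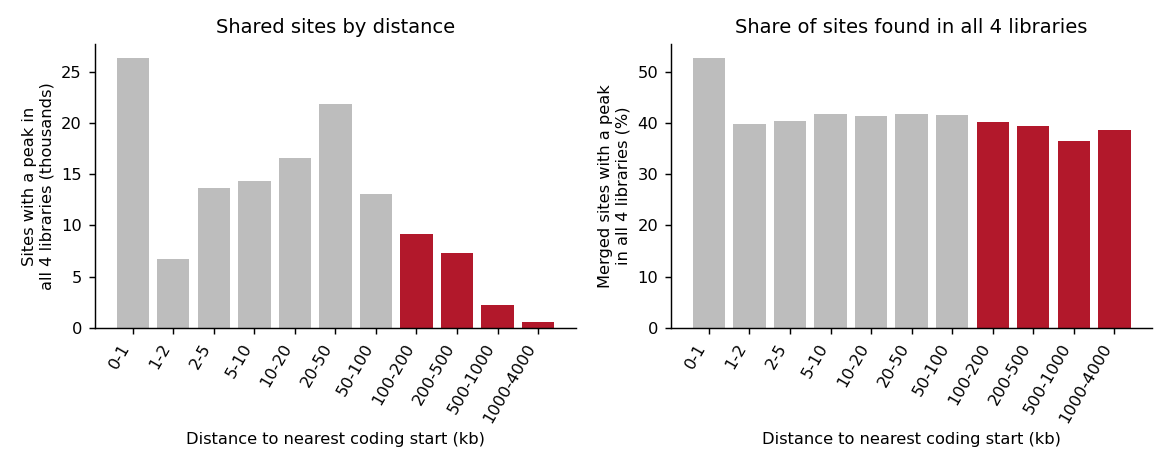
Left, number of shared sites (axis in units of 1000 sites) by distance to the nearest protein-coding start in kb; right, percent of all merged sites at that distance with a peak in all 4 libraries. Distances over 100 kb are red: 9127 shared sites at 100 to 200 kb, 7276 at 200 to 500 kb, 2249 at 500 to 1000 kb and 633 beyond, with 36.5 to 40.2% of merged sites shared.

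The 4 lists held between 195315 and 228644 peaks on these chromosomes, and the background pileup recovered from their values was 3.59 and 2.24 in the Untreated and 2.63 and 1.85 in the TWEAK libraries, so depth differed within groups as well as between them. Peaks more than 100 kb from a start made up 15.3% and 15.5% of the Untreated lists and 15.7% and 15.5% of the TWEAK lists. The mean was 15.6% ± 0.122 (SD, n = 2) with TWEAK and 15.4% ± 0.12 (SD, n = 2) without, a difference of 0.258 percentage points (exact permutation test over libraries, two-sided, p = 0.333, the smallest that 2 against 2 libraries can give). With peaks of a -log10 p of at least 5 the difference was 0.1001 points (exact permutation p = 1), beyond 250 kb it was 0.117 and beyond 50 kb 0.404. Without chromosome 8, a choice made after seeing the data, the difference was 0.479 points, and without single libraries it ran from 0.172 (without TWEAK replicate 1 and, rounded, 0.173 without Untreated replicate 1) to 0.344. As a check of the cell type, 9 of 10 luminal genes had a promoter peak in all 4 lists. CDH1, the gene of E-cadherin, had none in any list, and SKBR3 is known to lack E-cadherin. Of the immune genes 2 of 4, and of the fibroblast and endothelial genes 5 of 6, also had promoter peaks in all 4 lists, so promoter peaks at this low threshold separate cell types poorly.

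Of 48961 merged sites beyond 100 kb, 39.4% (95% Wilson interval 39.0 to 39.8) were found in all 4 lists, against 41.2% of nearer distal sites and 52.7% of promoter sites. Sites are not replicates, and this and later intervals cover counting error only. Beyond 100 kb, 30.6% of sites were found in 1 list, 16.4% in 2 and 13.6% in 3. A further 2457 sites missed only TWEAK 2, the list with the fewest peaks, 1735 missed only Untreated 1, 1247 only TWEAK 1 and 1209 only Untreated 2.

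Distant shared sites had lower median ranks than nearer ones in every library. Median percentiles were 60.2 and 64.0 in the Untreated and 62.1 and 57.3 in the TWEAK lists, against 64.7, 67.7, 66.2 and 62.1 at nearer distal sites and 81.1, 82.2, 81.1 and 78.7 at promoter sites. Outside chromosome 8 the gap to nearer distal sites was smaller, with medians of 63.3, 66.9, 65.4 and 61.0 against 66.0, 68.5, 66.9 and 63.2. On chromosome 8 it was wider, with 48.9, 48.9, 42.8 and 37.7 against 53.0, 56.4, 51.8 and 45.3. In signal, the median pileup was 10.0, 12.1, 12.5 and 13.5 times the background of the library (enrichment). Even so, 502 distant sites (2.6%) ranked above the 95th percentile in all 4 lists and 1162 (6.03%) above the 90th, which 9.15% of nearer distal and 28.0% of promoter sites did.

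**Figure D2:**
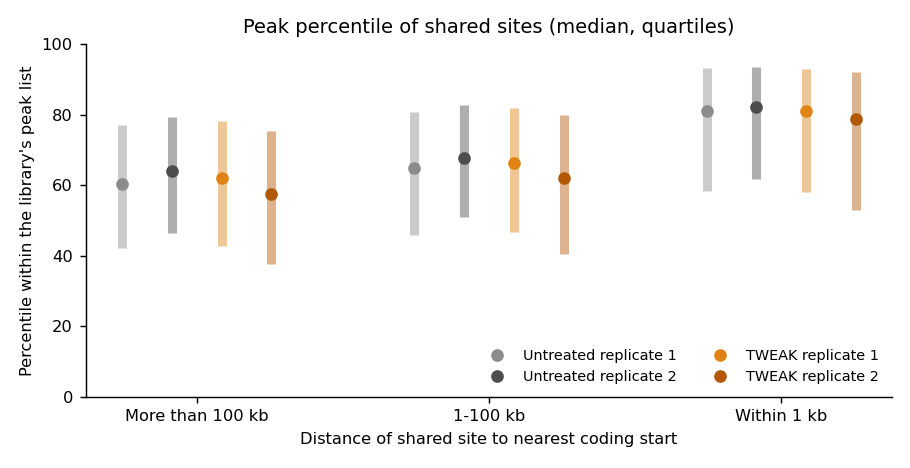
Percentile of the highest peak of each shared site within its library's list, by distance class; points are medians over sites and bars the interquartile range. Medians of sites beyond 100 kb lie between 57.3 and 64.0, below those of nearer distal sites (62.1 to 67.7) and promoter sites (78.7 to 82.2) in each of the 4 libraries.

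Strength was ranked by the lowest of a site's 4 percentiles. Neither ranks, enrichment, counts nor densities were corrected for copy number, which was not measured here, and this limits every comparison between chromosomes. The 12 sites ranked strongest all lay on chromosome 8. The first, chr8:121145445-121145959 between SNTB1, a syntrophin gene, and HAS2, a hyaluronan synthase gene, reached 632 and 735 times background in the Untreated and 686 and 761 times in the TWEAK libraries, and held an AP-1 match. Next was chr8:115987726-115988274 between TRPS1, a GATA-type repressor gene that marks luminal breast cells, and EIF3H, a translation factor gene, at 767, 890, 676 and 746 times. Its mean enrichment was above that of the first, but both TWEAK values were below both Untreated values. Of the remaining 10, 3 lay downstream of MYC, among them chr8:127859755-127860275, which covers a start of the non-coding gene PVT1 and reached 550, 653, 541 and 560 times. Others lay between TPD52 and ZBTB10, again between SNTB1 and HAS2, and around TRPS1 and CSMD3. Outside chromosome 8, the strongest was the site near TFAP2C whose sequence is shown first. It reached 260 and 275 times background in the Untreated and 292 and 301 times in the TWEAK libraries. TFAP2C encodes AP-2 gamma, a luminal transcription factor. Of the 12 strongest sites outside chromosome 8, 8 lay on chromosome 20 and 3 on chromosome 7.

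Chromosome 8 carried 4069 distant shared sites (21.1% of all), or 72.6 per Mb of sequence beyond 100 kb. Over all chromosomes the density was 18.9 per Mb, or 15.7 without chromosome 8, against 59.5 per Mb within 100 kb of a start. Chromosome 20 followed with 36.3 per Mb, and the lowest values were 6.70 on chromosome 18 and 8.09 on X. Sites of chromosome 8 were weaker at the median, at 7.25, 7.60, 7.22 and 8.12 times background, against 11.2, 13.4, 14.1 and 15.2 elsewhere. They also differed in content, with CTCF matches in 1.23% against 3.36% elsewhere and AP-1 matches in 8.41% against 13.6%. Both motifs were rarer at weaker distant sites in general. At mean percentiles of 25 to 50, CTCF was in 1.21% and AP-1 in 9.97%, against 4.25% and 13.5% at 50 to 75. Chromosomes were not compared at equal strength.

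The stretch between neighbouring coding starts with the most distant sites ran from CSMD3 to TRPS1 (505 sites in 2055 kb). After it came HAS2 to ZHX2 (389), KCNV1 to CSMD3 (291), HNF4G to ZFHX4 (267), SNTB1 to HAS2 (254), TRPS1 to EIF3H (204), IL7 to STMN2 (178), XKR9 to EYA1 (154), MYC to GSDMC (152) and PEX2 to PKIA (143). All 10 were on chromosome 8 and together held 13.2% of the sites. Outside it, TFAP2C to BMP7 held 106, RPS24 to ZMIZ1 84, MID1IP1 to BCOR 79 and FLRT2 to GALC 66. When sites less than 20 kb apart were joined, 4816 stood alone (25%), whereas 147 groups of at least 10 held 5115 sites (26.5%). Of these groups, 41 were on chromosome 8, and the largest held 422 sites over 1187 kb before TRPS1. The next groups, also on chromosome 8, held 389, 265, 254 and 168. The largest group elsewhere was the whole TFAP2C to BMP7 cluster, with 106 sites over 337 kb, of which 15 ranked above the 90th percentile in every list. A group of 40 sites between CEBPB, the gene of a stress-responsive factor, and PTPN1 had the highest median percentiles of the 5 largest groups off chromosome 8, at 77.1 and 77.9 in the Untreated and 81.8 and 77.6 in the TWEAK lists.

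By nearest gene, distant shared sites were assigned to 2425 of 19962 protein-coding genes (12.1%). A list of 54 developmental and other regulators known for gene deserts had 48 (88.9%) with at least 1 such site and 851 sites in all. MYC, the proliferation factor, had 165, ZFHX4, a zinc finger homeobox gene, 142, BMP7, a growth factor gene, 48 and SOX11, a developmental transcription factor gene, 38. Of 34 luminal breast genes, 16 (47.1%) were nearest to 286 sites, led by TFAP2C with 58, GATA3 with 42, TFAP2A with 35 and ZNF217, an oncogenic zinc finger gene, with 33. Of 43 genes of TWEAK and NF-κB signalling, 4 (9.30%) were nearest to 29 sites. They were JUN (10 sites), TNFAIP3 (8), NAMPT (7) and FOSL2 (4). The lists overlap the rule in that a gene can have a site only where its neighbours leave more than 100 kb free, and the gap beside each gene was not matched. Their genes were chosen with earlier results of these data known.

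The rule ignored starts of other kinds of gene. A start of a gene that is not protein-coding lay within 1 kb of 1341 sites (6.95%, interval 6.60 to 7.32), against 6.86% of nearer distal sites, which is about the same share. Long non-coding RNAs accounted for 1049 (5.44%, against 4.45%), pseudogenes for 197 (1.02%, against 1.32%), small RNAs other than miRNAs for 35 (0.181%, against 0.564%) and miRNAs for 15 (0.0778%, against 0.294%). Sites at such starts ranked higher, with median percentiles of 66.0, 69.3, 67.5 and 65.1 in Untreated 1 and 2 and TWEAK 1 and 2, against 60.2, 64.0, 61.2 and 57.3 elsewhere. They were also richer in GC (50.2% against 45.3%), in CTCF matches (4.77% against 2.77%) and in matches to GGGGCGGGG, the box of SP and KLF factors (2.91% against 0.379%). The strongest 5 lay at starts of PVT1 (2 sites), LINC00536, ENSG00000287352 and LINC03006. The site at LINC03006 on chromosome 7, near VKORC1L1, reached 144 and 169 times background in the Untreated and 158 and 181 times in the TWEAK libraries.

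The sequence of distant sites differed from that of nearer ones. Median GC content within 100 bases of the peak centre was 45.8%, against 49.3% at nearer distal and 61.7% at promoter sites, and the observed over expected ratio of CpG was 0.174 against 0.208 and 0.596. Motifs were searched on both strands by fixed letters where short: AP-1 (TGAGTCA), FOX (TGTTTAC), the GATA factors (their letters AGATAA), TEAD (CATTCCA), RUNX (TGTGGTT), ETS (CCGGAAG), GRHL (AACCNGTT), CEBP (TTGCNNAA), TFAP2 (GCCNNNGGC), NRF1 (GCGCATGCG) and the SP/KLF box, and TFAP2 and SP/KLF matches could overlap. CTCF, NF-κB, NFI and steroid receptor matches used ambiguous consensus letters. CEBP matches were the most common at distant sites, in 14.8% of distant, 12.5% of nearer distal and 11.6% of all shared sites. AP-1 was in 12.5%, 11.7% and 10.6%, FOX in 9.89%, 7.23% and 6.80%, and GATA in 9.25%, 7.45% and 6.90%. The opposite order held for TFAP2 (10.9%, 13.9% and 15%) and NF-κB (4.38%, 5.67% and 5.96%). CTCF matches were in 2.91% of distant sites, fewer than at nearer distal sites (4.10%) and all shared sites (3.50%) but more than at promoter sites (1.97%). GRHL, whose factors keep epithelial enhancers open, was in 3.80% against 3.53% of nearer distal sites. No motif was found in 7684 distant sites (39.8%). The shares depended on the window. Within 50 bases of the centre and over the whole peak, CEBP was in 8.66% and 29.8% of distant sites, GATA in 4.22% and 27.9%, AP-1 in 8.24% and 17.8%, FOX in 6.22% and 15.4%, and NF-κB in 2.52% and 9.36%, so GATA exceeded AP-1 over the whole peak. CTCF was in 2.70% and 3.02%.

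GC content moved with these shares, so they were also compared within bands of GC. At 45 to 50% GC, FOX matches were in 7.54% of distant and 7.03% of nearer distal sites and GATA matches in 8.11% and 8.26%, so there the differences nearly vanished. CTCF matches stayed fewer at distant sites in each band up to 60% GC, for example 3.06% against 3.67% at 45 to 50%, but not above 60% (7.57% against 6.67%). NF-κB matches were in 5.05% of distant and 4.35% of nearer distal sites at 45 to 50% GC, the reverse of the order over all sites. That reversed order also held at 40 to 45% (3.08% against 2.99%). In the other bands NF-κB matches stayed fewer at distant sites, with 1.01% against 1.58% up to 40% GC. The shares were 6.01% against 6.34% at 50 to 55%, 7.95% against 8.88% at 55 to 60% and 11.1% against 11.6% above 60%. Within the distant sites, CTCF matches were in 2.58 to 3.07% at distances up to 1000 kb and in 6.16% of the 633 sites beyond.

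**Figure D3:**
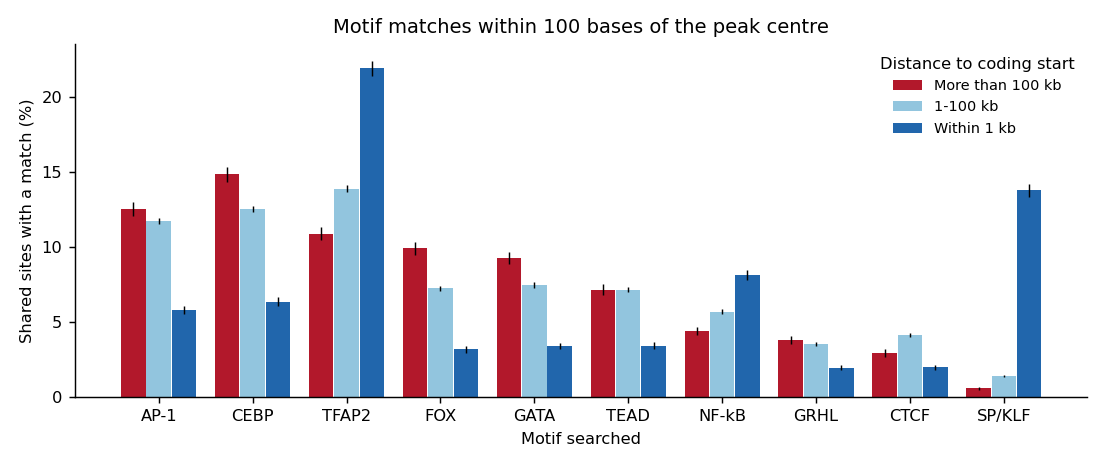
Percent of shared sites with a motif match within 100 bases of the peak centre, by distance to the nearest protein-coding start; error bars are 95% Wilson intervals. Beyond 100 kb, CEBP (14.8%) and AP-1 (12.5%) were the most common, and FOX, at 9.89%, exceeded its share at 1 to 100 kb (7.23%) and within 1 kb (3.16%).

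At 55 to 60% GC, FOX matches were in 10.3% of distant but 5.0% of nearer distal sites. The letters around these matches in GC-rich distant sites were often the same, and the commonest stretch, of 21 bases around the FOX match, recurred across the genome. It was found in 74 distant shared sites on 15 chromosomes (0.384%, interval 0.306 to 0.481), 62 nearer distal sites (0.0720%) and 5 promoter sites. The stretch was picked from distant sites after seeing them, so the comparison is a description. It is known as part of the 5′ end of L1 retrotransposons, mobile elements with many near-identical copies. Sites with it had a median GC content of 59.7% and median percentiles of 63.0 and 68.9 in the Untreated and 66.9 and 66.0 in the TWEAK lists. Under TWEAK, 12 ranked higher (16.2%) and 14 lower (18.9%) in both libraries, beside 15.8% and 35.4% of all shared sites. The strongest outside chromosome 8, chr3:187890395-187890922, lay 145 kb from BCL6, the gene of a transcriptional repressor, at 63.3, 87.2, 74.4 and 82.8 times background. Leaving these sites out, FOX matches were in 9.55% of distant and 7.16% of nearer distal sites, and at 55 to 60% GC in 8.03% and 4.72%. In all, 584 distant sites (3.03%) shared a run of 50 bases with another distant site.

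The effect of TWEAK was read from ranks. A site was called higher when both TWEAK percentiles exceeded both Untreated percentiles, and lower in the opposite case. By this rule 3336 distant sites were higher (17.3%, interval 16.8 to 17.8), against 15.8% of all shared sites, and 6845 were lower (35.5%), against 35.4%. Both shares lay close to those of all shared sites, so they are no result about distance. The median change was -2.45 percentile points, with an interquartile range of -9.42 to 2.27. The balance depended on the scale. With percentiles among the shared sites alone, 25.3% were higher and 28.5% lower (23.3% and 28% of all shared sites). With enrichment over background, 36.3% were higher and 13.9% lower (34.8% and 12.2%), and with enrichment over the library's median at shared sites 21.2% and 34.1% (18.5% and 36.4%), so no general direction can be given. Without Untreated replicate 2 the share higher was 33.0% and without TWEAK replicate 2 31.8%, while the share lower was 56.8% without TWEAK replicate 1 and 53.6% without Untreated replicate 1, each with 1 library fewer to compare. All shared sites gave 31.4%, 30.6%, 57.6% and 54.7% in the same order. Replicates were closer to each other than to the other group, with median absolute differences of 4.59 points between the Untreated and 5.16 between the TWEAK libraries, against 6.23 to 8.38 across groups. On chromosome 8, 9.81% were higher and 41.8% lower, against 19.3% and 33.8% elsewhere. All shared sites leaned the same way there, with 12.3% higher and 40.7% lower on chromosome 8 and 16.2% and 34.9% elsewhere. By enrichment, distant sites were 26.4% higher and 14.1% lower on chromosome 8 and 38.9% and 13.8% elsewhere.

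The largest rise was at chr13:106373222-106375043, which covers the start of the long non-coding RNA LINC00460, 141 kb from EFNB2, an ephrin ligand gene. It ranked at 15.1 and 22.8 in the Untreated and 91.2 and 91.5 in the TWEAK lists, or 3.62 and 4.47 against 50.1 and 58.5 times background. A site near SHQ1 at chr3:72625587-72626135 rose from 2.79 and 4.92 to 34.6 and 43.9 times background. A site near ATP2B1, a calcium pump gene, at chr12:89959909-89960597 rose from 5.02 and 3.58 to 51.3 and 60.1. In each of these the groups were far apart compared with the gap within them. A site in an intron of FGF14 rose from 3.35 and 3.13 to 27.0 and 21.1 times background, and one near TTC8 from 3.90 and 5.37 to 56.2 and 55.2. Falls were smaller. The largest, at chr2:139465460-139466211 near NXPH2, went from 11.7 and 16.6 times background to 3.04 and 5.41, and its percentiles from 64.7 and 72.0 to 2.25 and 17.9. The other falls were in CDH13, the gene of T-cadherin (10.6 and 10.7 to 3.04 and 4.87), near DIAPH3, a formin gene (14.2 and 18.8 to 4.56 and 5.41), near BCL11A (10.9 and 9.39 to 3.42 and 4.33) and near SOX11 (12.3 and 10.7 to 3.42 and 5.41). NF-κB matches were in 2 of the 5 rises, near EFNB2 and ATP2B1, and in none of the 5 falls. None of the rises or falls held an AP-1 match. Over all distant shared sites the shares were 4.38% for NF-κB and 12.5% for AP-1. With 2 against 2 libraries no single site can be tested below p = 0.333 by exact permutation.

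**Figure D4:**
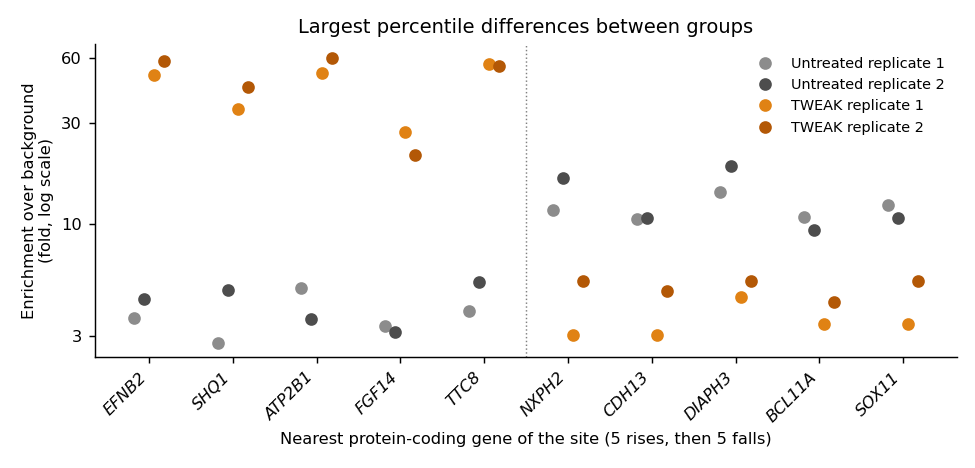
Enrichment over background (fold, log axis) in each library at the 5 distant shared sites with the largest rise and the 5 with the largest fall in percentile, named by nearest gene. At the rises TWEAK values are 21.1 to 60.1 and Untreated values 2.79 to 5.37, and at the falls TWEAK values are 3.04 to 5.41 and Untreated values 9.39 to 18.8.

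Sites with an NF-κB match were more often higher than others. Of the 844, 361 were higher (42.8%) and 148 lower (17.5%), against 16.1% and 36.3% of sites without a match. Seen from the other side, NF-κB matches were in 10.8% of higher sites (interval 9.81 to 11.9) but 2.16% of lower sites (1.84 to 2.53) and 3.68% of the rest. The contrast held on the other scales, at 8.87% against 2.14% with percentiles among shared sites and 7.25% against 1.83% with enrichment. With other motif windows it was 6.68% against 1.11% within 50 bases of the centre and 16.5% against 6.17% over the whole peak. It held within chromosome 8 (12.3% against 2.47%) and in every band of GC content, from 3.71% against 0.222% up to 40% GC to 26.2% against 6.38% above 60%. Median GC was 46.3% at higher and 44.8% at lower sites. Over all shared sites the figures were 12.7% against 3.94%, so the contrast was not limited to distant sites.

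Sites with an AP-1 match leaned the same way. Of 2409 sites with a match, 810 were higher (33.6%) and 499 lower (20.7%), and matches were in 24.3% of higher and 7.29% of lower sites. Over all shared sites they were in 22.1% and 5.99%, so this contrast too was not limited to distant sites. The 85 sites with both motifs were higher in 64.7% of cases and lower in 12.9%. Their median enrichment was 14.5 and 17.0 in the Untreated and 29.6 and 34.1 in the TWEAK libraries. Sites with NF-κB alone were higher in 40.3% and sites with AP-1 alone in 32.5%, against 13.8% of those with neither. A repeated AP-1 match went with a larger share, 53.1% of 179 sites against 32.1% of those with a single match. Sites with a FOX match were higher less often than those without, at 13.6% of 1908 against 17.7%, and lower more often, at 43.4% against 34.6%. By enrichment their balance turned, with 28.6% higher and 18.9% lower, against 37.1% and 13.3% of sites without a match. By percentile, among sites with FOX but neither NF-κB nor AP-1, 11.5% of 1652 were higher and 45.5% lower, against 13.8% and 38.5% of all sites with neither. FOX matches were in 7.79% of higher and 12.1% of lower distant sites. Over all shared sites they were in 5.73% and 8.42%, so this lean was not limited to distant sites. Of 561 sites with a CTCF match, 8.56% were higher and 19.1% lower. Among all 4613 shared sites with a CTCF match the shares were 8.37% and 26.3%. The share higher was thus about the same as over all shared sites, and the share lower was smaller. The balance of the 561 distant sites turned with the scale, to 38.7% higher and 1.78% lower by enrichment, as for the distant sites as a whole.

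**Figure D5:**
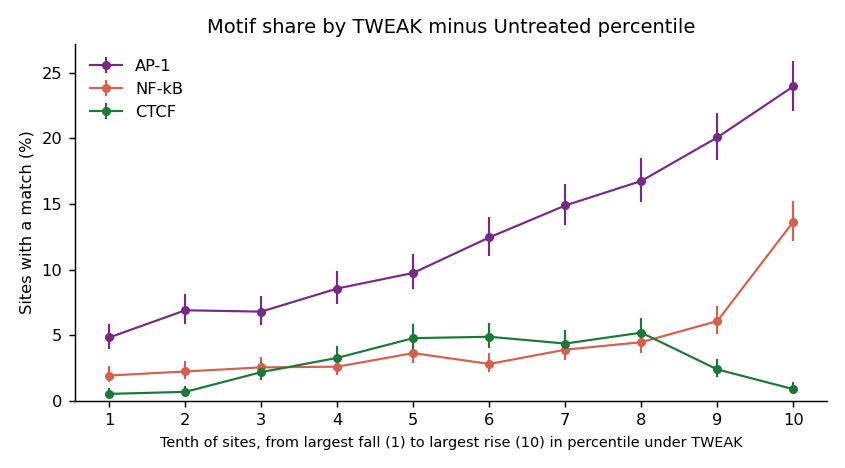
Percent of distant shared sites with an AP-1, NF-κB or CTCF match in 10 bins of equal size (1928 or 1929 sites each), ordered by the TWEAK minus Untreated percentile; error bars are 95% Wilson intervals. NF-κB goes from 1.92% in the lowest to 13.6% in the highest bin and AP-1 from 4.82% to 24.0%, while CTCF is highest in bin 8 (5.19%) and lower at both ends (0.518% and 0.882%).

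The exact letters of the NF-κB match went with the direction. Among 92 versions of 10 letters found in distant sites, 35 occurred in at least 10 sites, counted after the data were seen and written on the strand that begins with GGG. Their counts stand beside the 42.8% higher and 17.5% lower of all distant sites with an NF-κB match. Of all shared sites, 15.8% were higher and 35.4% lower. The versions are given for distant sites only. GGGACTTTCC was in 32 sites, of which 29 were higher and 1 lower, with a median change of 22.2 percentile points. GGGGCTTTCC was in 19 sites, 18 higher and 0 lower, and GGGGTTTTCC in 19, 16 higher and 1 lower. GGGACTTTCC is the κB site of the immunoglobulin kappa enhancer, from which the factor has its name. The related GGGGAATTCC (27 of 36 higher), GGGGATTTCC (19 of 26), GGGAATTTCC (20 of 28) and GGGAAATCCC (21 of 26) were also mostly higher. Other related versions were not, among them the commonest, GGGAAATTCC (27 of 55), and GGGGACTTCC (7 of 18), GGGAAGTTCC (6 of 16) and GGGAACTTCC (5 of 18). By contrast, GGGAGGCTCC was higher in 4 of 23 and lower in 7, GGGAGCCTCC in 1 of 19 and lower in 8, and GGGAACTCCC in 9 of 30 and lower in 11. The NF-κB match of the NAMPT site printed above, GGGATTTCCC, is GGGAAATCCC on its other strand.

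A stricter call, also added after seeing the data, asked that both TWEAK values be at least 2 times both Untreated values after dividing enrichment by the library's median over all shared sites. Then 341 distant sites (1.77%) were higher and 108 (0.560%) lower, against 1.46% and 0.357% of all shared sites. The higher sites went from a median of 6.41 and 7.16 times background in the Untreated to 25.8 and 28.7 times in the TWEAK libraries, and the lower from 15.8 and 19.2 to 7.60 and 8.12. NF-κB matches were in 111 of the 341 (32.6%, interval 27.8 to 37.7) and in 1 of the 108 (0.926%), against 39.7% and 1.27% over all shared sites by the same call. AP-1 matches were in 75 and 3 (22% and 2.78%, against 22.5% and 3.82% over all shared sites), and CTCF matches in 0 and 0, so at most 1.11% of the higher sites by the upper bound of its interval. FOX matches were in 29 of the higher (8.5%) and 20 of the lower (18.5%), against 6.16% and 17.4%. The largest ratio of group means, taken after the same division by the library medians, was 12.1, at chr3:35263290-35263854 near ARPP21, where undivided enrichment was 6.69 and 8.05 without and 96.9 and 115 with TWEAK, at a site with NF-κB and AP-1 matches. GATA3, the gene of a luminal master factor, was nearest to 5 of the higher sites, out of 42 distant sites, whereas TRPS1 was nearest to 4 out of 470.

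The counts by gene are read beside the 15.8% higher and 35.4% lower of all shared sites. Among luminal genes, the 42 sites nearest to GATA3 were higher in 17 cases and lower in 6. Those of TFAP2C were higher in 7 and lower in 28 of 58, of TFAP2A in 7 and 10 of 35 and of ZNF217 in 11 and 13 of 33. RUNX2, named after its values were seen, had 9 higher and 1 lower of 11 sites. Around MYC 21 were higher and 89 lower, around ZFHX4 7 and 54, around BMP7 9 and 25 and around SOX11 7 and 15. MYC and ZFHX4 are on chromosome 8, where 9.81% of distant sites were higher and 41.8% lower. These counts use percentiles among all peaks, whose balance leans to lower throughout the sites.

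The 29 sites of TWEAK and NF-κB genes included a large rise near NAMPT, and their counts stand beside the same 15.8% and 35.4% of all shared sites. The site at chr7:106424896-106425426 near NAMPT, at the start of the long non-coding RNA ENSG00000286076, ranked at 60.2 and 63.0 in the Untreated and 96.7 and 95.7 in the TWEAK lists, or 10.0 and 11.6 against 81.7 and 82.3 times background. Of the 7 NAMPT sites it was the only 1 with an NF-κB match, 2 were higher and 3 lower, and the strongest without TWEAK, at chr7:106448889-106449408, went from 86.8 and 89.8 to 82.5 and 78.3. Of the 8 sites nearest to TNFAIP3, the gene of the NF-κB inhibitor A20, 3 were higher and 2 lower. The site at chr6:137728646-137729357 ranked at 35.6 and 40.8 in the Untreated and 66.9 and 70.7 in the TWEAK lists, and that at chr6:137733983-137734713 at 2.13 and 9.60 against 35.4 and 43.0. JUN had 2 higher and 3 lower of 10, and the site at chr1:58922193-58922748 went from 63.3 and 66.9 to 84.7 and 84.7. Of the 29 sites, 2 more held an NF-κB match, and neither was called. The site at chr1:59013191-59013714 near JUN ranked at 42.2 and 69.3 in the Untreated and 67.5 and 59.8 in the TWEAK lists, and that at chr6:137707596-137708342 near TNFAIP3 at 45.7 and 40.8 against 61.2 and 37.7, so the groups overlapped at both. FOSL2, a gene of the Fos family, had 0 higher and 2 lower of 4. At chr2:28163892-28164762 its site ranked at 27.2 and 51.0 in the Untreated and 6.62 and 2.52 in the TWEAK lists. Which gene each site acts on was not measured.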

How the data were processed

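Accessible chromatin of SKBR3 cells was profiled by ATAC-seq in 2 Untreated and 2 TWEAK libraries. Per the methods and the labels, the authors trimmed adaptors (Trimmomatic), aligned to hg38 (Bowtie2), discarded mitochondrial (Bamtools) and duplicate (Picard) reads, and ran MACS2; 1 list was deposited per library. Versions, settings, any Tn5 shift and the handling of reads that map to several places are not given in the sources used here. Each deposited list holds peaks of 1 fixed width with an unnamed value. The deposited value was read as the -log10 of an uncorrected Poisson p-value against 1 background per list (largest error over the lowest distinct values fitted 8.08e-05), from which pileup and enrichment over background were recovered. The deposited start and end positions are the other columns used, with no score derived from them, and 0 columns belonged to samples of another series. Read depth was not given, so the recovered background stands for it.

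Peaks were merged and measured against GENCODE release 44 with Python 3.11.15, pandas 2.3.3 and scipy 1.17.1, and the functions were tested on simulated data. Sequences came from hg38, without repeat masking. The named sites were the 12 strongest, the 5 farthest, the 5 largest rises and falls, the 10 stretches and 5 groups with most sites, 4 genes per list, the 5 strongest at non-coding starts and 3 sites on either side of the distance limit. Everything else named (sites, stretches and groups off chromosome 8, genes that hold sites, single sites of listed genes, sites that passed the 2-fold call, and motif letters) was chosen after its values were seen. Sites and gene lists were chosen with earlier results of these data known. Read-based tests such as DiffBind, which the study used, were not run, since only peak lists were used here. Alternatives varied distance, starts, peak threshold, overlap, scale, motif window and libraries.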

Additional observations from a re-analysis of the deposited data

How the results depend on the processing

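The number of distant shared sites was 32497 with 1 start per gene, 32319 beyond 50 kb and 7935 beyond 250 kb, and 20459 to 21731 without single libraries. The share of distant sites found in all 4 lists was 45.7% at a -log10 p of at least 5, 46.1% at 5 times background, 38.3% beyond 250 kb, 40.2% beyond 50 kb, 32.3% with an overlap of 250 bp, and 44.7 to 46.3% without single libraries, where fewer lists had to agree. The share at non-coding starts was 7.34% at a -log10 p of 5, 7.32% at 5 times background, 6.02% both with 1 start per gene and beyond 250 kb, 7.39% beyond 50 kb, 7.66% without chromosome 8 and 6.76 to 6.91% without single libraries. CTCF matches were in 3.46% at a -log10 p of 5, 3.52% at 5 times background and 3.36% without chromosome 8.

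The share higher was 15.8% beyond 250 kb, 18.0% with an overlap of 250 bp, 36.3% by enrichment, 25.3% by percentile among shared sites, 21.2% by enrichment over the library median, 1.77% with a 2-fold limit, 19.3% without chromosome 8 and 21.1 to 33.0% without single libraries. The share lower was 36.2% beyond 250 kb, 36.8% at 5 times background, 13.9% by enrichment, 28.5% by percentile among shared sites, 34.1% by enrichment over the library median, 0.560% with a 2-fold limit, 33.8% without chromosome 8 and 41.9 to 56.8% without single libraries. Over all shared sites, the shares higher and lower were 16.2% and 34.9% without chromosome 8, 15.3% and 36.9% at 5 times background, 16.1% and 35.1% with an overlap of 250 bp, and 20.2 to 31.4% and 42.0 to 57.6% without single libraries. Both the enrichment scale and the 2-fold limit turned the balance of directions, and the cause was not tested. NF-κB matches in higher sites were at 9.59% beyond 250 kb, 7.25% by enrichment, 8.87% by percentile among shared sites, 9.62% by enrichment over the library median, 32.6% with a 2-fold limit, 6.68% within 50 bases, 16.5% in the whole peak and 7.20 to 9.74% without single libraries. In lower sites they were at 2.59% beyond 50 kb, 1.83% by enrichment, 0.926% with a 2-fold limit, 1.11% within 50 bases, 6.17% in the whole peak and 2.37 to 2.76% without single libraries. In each of these settings the share was larger in higher than in lower sites. The settings without chromosome 8 and with the library median were chosen after seeing the data.

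With replicate block, pairing libraries of the same number, the difference in the share of distant peaks stayed at 0.258 points (exact sign-flip permutation, p = 0.5, the smallest that 2 pairs allow). The labels tie the numbers to no shared day or culture. Peak lists without reads limit all comparisons to ranks and recovered pileups, and a site missing from 1 list by the peak threshold was left out.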
